A study of Homo sapiens with 6 samples.

Results

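KRT8, KRT18 and KRT19, the keratins of simple epithelium, were read in 4 RNA libraries of human cervical carcinoma cell lines, where they make up 3 of the 10661 genes with a row in either deposited table. They were chosen by name. KRT8 and KRT18 had rows in both tables, and KRT19 had a row in the SiHa table and none in the ME-180 table. Absence of a row is not a count of 0, so nothing is said of KRT19 in ME-180. The libraries were ME-180 cells labelled p63 knockdown (column name shp63), their control (plko), SiHa cells with p63 overexpression, and SiHa cells with the vector, at passages 13 to 15 in every case and with 1 library per group. ME-180 is a squamous cervical carcinoma line and SiHa another cervical carcinoma line, and the lines were grown in different media. Which hairpin and p63 isoform were used, and the time until harvest, the sources used here do not state. The series also holds a p63 chromatin immunoprecipitation and its input, which were not used here.

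Keratins form filaments as obligate pairs of a type II and a type I protein. KRT8 is the type II keratin of simple, single-layered epithelia such as the columnar lining of the endocervix, and KRT18 is its usual type I partner. KRT19 is a short type I keratin without the tail domain of the others, which also pairs with KRT8 and is found in simple epithelia and in some basal cells of stratified epithelia. Stratified squamous epithelium, such as that of the ectocervix, rests instead on the basal pair KRT5 and KRT14, whose genes are known targets of p63, the transcription factor encoded by TP63. Carcinomas of squamous origin often carry both sets.

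The totals of the table rows were 10046579 counts for the library labelled knockdown, 10804272 for the ME-180 control, 13690639 for SiHa overexpression and 14207637 for the SiHa vector. These are totals of the rows and not sequencing depths. CPM below means counts per 1000000 of that total. TP63 went with the labels: its delta N alpha transcript had 6 counts in the library labelled knockdown against 5619 in the ME-180 control, and 179 with overexpression against 7 with the vector. As for the squamous label of ME-180, KRT5 had 679522 and KRT14 46445 counts in its control, against 247 and 23 in the SiHa vector. The ME-180 pair differed far more widely than the SiHa pair, with 48.9% of 6783 genes at least 2-fold apart in ME-180 and 1.32% of 6996 in SiHa. No group had a replicate, so there is no test of the conditions, and every 95% interval (exact Poisson for a level, exact conditional binomial for a ratio) covers counting error only. In such bulk RNA, fewer cells of a type and less RNA per cell cannot be told apart.

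In ME-180, KRT8 had 220 counts in the library labelled knockdown and 20597 in the control for transcript NM_001256293.1, the row with the highest level. This is 21.9 CPM (95% interval 19.1 to 25.0) against 1906 CPM (1880 to 1933). The level in the library labelled knockdown was 1.15% of that in the control (1.001% to 1.31%), or 87.1-fold lower (76.2 to 99.9). KRT18, the type I partner, had 1094 counts in the library labelled knockdown and 8678 in the control, or 109 CPM (103 to 116) against 803 CPM (786 to 820). It was 7.38-fold lower (6.93 to 7.86), leaving 13.6% of the control level. Both measured members were lower by the rule used for calls, a ratio of at least 2-fold on log2(CPM + 1) with at least 1 CPM in a library. By that rule 20.6% of 6783 genes were lower in the same comparison and 28.2% higher. Trimmed means scaling moves the ratios of this comparison by -0.28 on the log2 scale, and by less for genes of few CPM because of the added 1 CPM. It turned the split to 1503 genes higher and 1653 lower, against 1914 and 1400.

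KRT8 and KRT18 did not sit at the same place among all genes of the ME-180 comparison. The log2 ratio of KRT8 was -6.38, and 60 of the 6783 genes (0.885%) had a ratio as low or lower. That of KRT18 was -2.87, and 415 genes (6.12%) were as low or lower. The median over all 6783 genes was 0.28. In the authors' deposited table the log2 fold changes were -6.76 for this KRT8 row and -3.20 for KRT18, on a scaling of the authors' own.

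**Figure D1:**
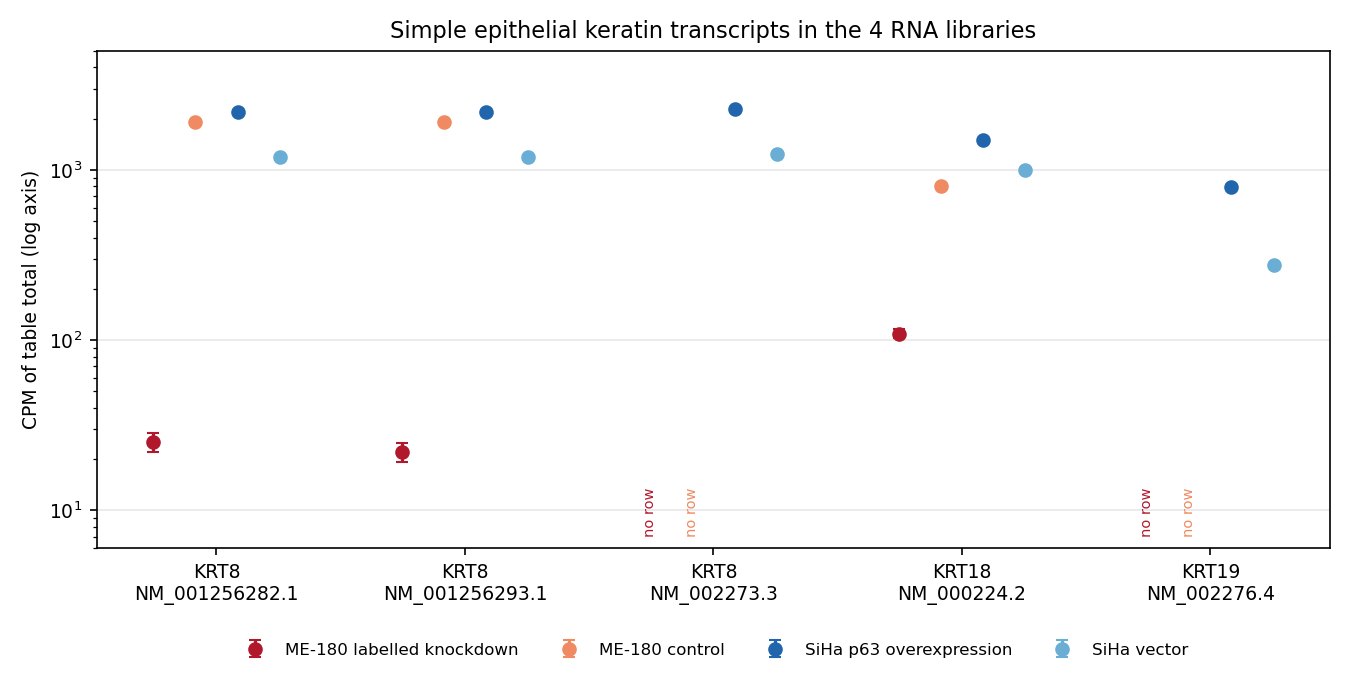
Level of each deposited row of KRT8, KRT18 and KRT19 (CPM of the table total, log axis) in the 4 RNA libraries. Points are single libraries and bars are exact 95% Poisson intervals, often smaller than the point. KRT8 and KRT18 are lowest in the library labelled knockdown (21.9 and 109 CPM for NM_001256293.1 and NM_000224.2), and "no row" marks a transcript that the ME-180 table used here does not list.

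The rows of KRT8 were near copies of one another in 3 libraries and drew apart in the fourth. NM_001256282.1 and NM_001256293.1 had 252 and 220 counts in the library labelled knockdown, and 20553 and 20597 in the ME-180 control. They had 29754 and 29910 counts in SiHa overexpression, and 16834 and 16941 in the SiHa vector. NM_001256282.1 thus stood at 115% of NM_001256293.1 in the library labelled knockdown and between 99.4% and 99.8% in the others. The difference in the library labelled knockdown is 32 counts, and since a read can enter both rows, no interval was put on it. With NM_001256282.1 in place of the other row, KRT8 was 75.8-fold lower (66.98 to 86.2) in the library labelled knockdown. The third row, NM_002273.3, was listed for SiHa only, with 31141 counts in overexpression and 17627 in the vector.

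Some reads of these genes cannot be placed with certainty. A RefSeq reference of another build (GRCh38.p14) lists 52 loci named as KRT8 pseudogenes, 68 as KRT18 pseudogenes and 5 as KRT19 pseudogenes. None of them has a row in either table, and the sources used here do not state how reads that match several places were counted. In the same reference KRT8 and KRT18 are neighbours on chromosome 12 and their annotated spans overlap, while KRT19 lies on chromosome 17. Without a stated strand setting, reads from an overlap could enter either gene. The part of such reads in the counts was not tested.

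The balance of the pair changed along with the levels. The ratio of KRT8 to KRT18 counts was 0.201 (0.173 to 0.233) in the library labelled knockdown and 2.37 (2.31 to 2.43) in the ME-180 control. Relative to its partner KRT18, KRT8 was therefore 11.8-fold lower in the library labelled knockdown (95% interval of the ratio of ratios 10.2 to 13.7), a value in which library scaling and transcript length cancel. In SiHa the same count ratio was 1.52 (1.49 to 1.55) with overexpression and 1.24 (1.22 to 1.27) with the vector, a change of 1.22-fold (1.19 to 1.26). KRT18 counts exceeded those of KRT8 in the library labelled knockdown alone among the 4 libraries.

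**Figure D2:**
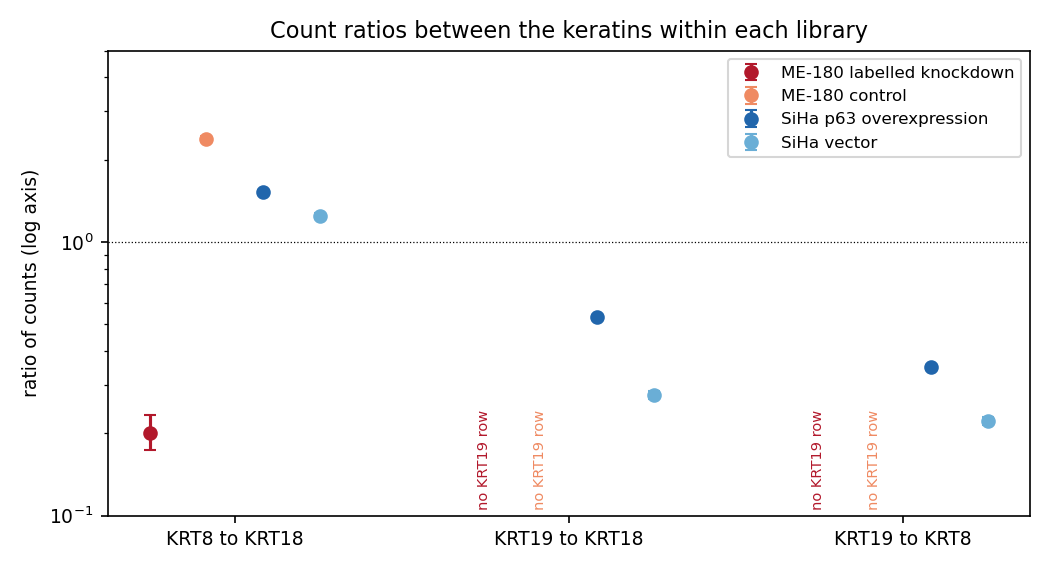
Ratio of counts between the keratins within each library (log axis), with exact 95% intervals for counting error. The ratio of KRT8 to KRT18 is 0.201 in the library labelled knockdown and between 1.24 and 2.37 in the other 3 libraries, and ratios with KRT19 exist for SiHa only.

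In SiHa, KRT19 stood out among the 3 genes. It had 10868 counts with overexpression and 3904 with the vector, or 794 CPM (779 to 809) against 275 CPM (266 to 284), 2.89-fold higher (2.78 to 2.997). KRT8 had 31141 counts with overexpression and 17627 with the vector, or 2275 CPM (2249 to 2300) against 1241 CPM (1222 to 1259). Its ratio was 1.83 (1.80 to 1.87), short of 2-fold also at the upper end of the counting interval. KRT18 had 20499 counts with overexpression and 14170 with the vector, or 1497 CPM (1477 to 1518) against 997 CPM (981 to 1014), a ratio of 1.501 (1.47 to 1.53). All 3 genes lay above their vector level, and 1 of the 3 passed the 2-fold rule, which 0.572% of 6996 genes did in that direction and 0.743% in the other.

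The SiHa ratios were small in size and yet near the upper edge of that comparison. KRT19 had a log2 ratio of 1.53, with 12 of 6996 genes (0.172%) as high or higher. KRT8 had 0.87, with 67 genes (0.958%) as high or higher, and KRT18 had 0.59, with 157 genes (2.24%). The median over all genes was -0.05, and the middle 90% of genes lay between -0.62 and 0.40. Relative to each other, KRT19 was 1.92-fold higher against KRT18 (1.84 to 2.01) and 1.58-fold higher against KRT8 (1.51 to 1.64) with overexpression. In the authors' deposited table the log2 fold changes were 1.57 for KRT19, 0.91 for KRT8 row NM_002273.3 and 0.63 for KRT18.

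**Figure D3:**
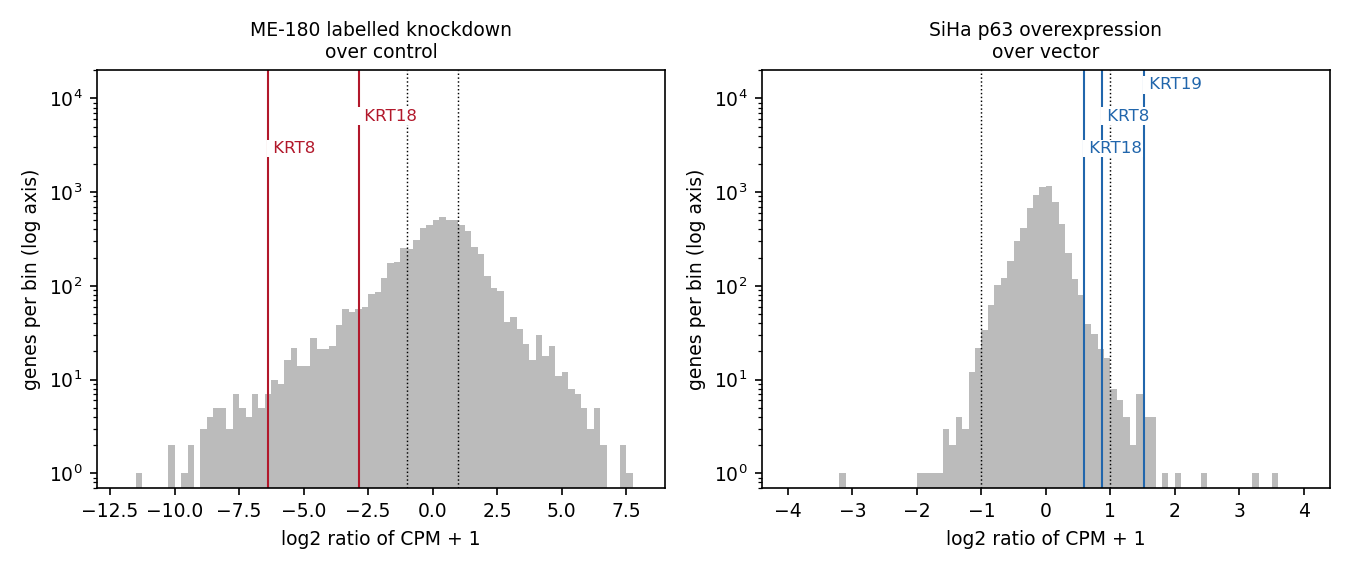
Number of genes per bin of the log2 ratio of CPM + 1 (grey, log axis) among genes with at least 1 CPM in a library, for the library labelled knockdown over control in ME-180 and for overexpression over vector in SiHa. Coloured lines mark KRT8, KRT18 and KRT19 and dotted lines the 2-fold limits. KRT8 lies at -6.38 and KRT18 at -2.87 in ME-180, and the 3 genes lie at 0.59, 0.87 and 1.53 in SiHa.

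The ME-180 control and the SiHa vector library carried KRT8 and KRT18 at levels within 2-fold of each other, although TP63 was 1056-fold higher in the ME-180 control (512 to 2627). These levels come from separate tables and are set side by side over the same transcripts, with scaling to each table's total. KRT8 (NM_001256293.1) had 1906 CPM in the ME-180 control and 1192 CPM in the SiHa vector, a ratio of 1.60 (1.57 to 1.63). For KRT18 the levels were 803 CPM in the ME-180 control and 997 CPM in the SiHa vector, a ratio of 0.805 (0.784 to 0.827). Neither was at least 2-fold apart, where 38.5% of 6157 genes were. The ratio of KRT8 to KRT18 was 1.99-fold higher in the ME-180 control (1.92 to 2.05). The log2 ratio of KRT18 was -0.31 here and -0.10 with scaling by trimmed means, so its size rests on the scaling.

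TP63 had few counts both in the library labelled knockdown (6, or 0.597 CPM) and in the SiHa vector (7, or 0.493 CPM), yet the keratin levels of these libraries were far apart. KRT8 had 21.9 CPM in the library labelled knockdown against 1192 CPM in the SiHa vector, 54.5-fold lower (47.7 to 62.5). KRT18, at 109 CPM against 997 CPM, was 9.16-fold lower (8.61 to 9.75). Both were thus lower in the library labelled knockdown, as were 9.75% of 6175 genes, while 34.9% were higher and 44.7% differed in either direction. In order of level, KRT8 was lowest in the library labelled knockdown, then came the SiHa vector, the ME-180 control and SiHa overexpression. KRT18 had the order library labelled knockdown, ME-180 control, SiHa vector and SiHa overexpression. With scaling to table totals, neighbours in both orders lay apart by more than counting error, and spread between cultures is unknown. With trimmed means, the log2 ratio of KRT8 to the SiHa vector was 0.89 in the ME-180 control and 0.92 in SiHa overexpression. With table totals these ratios were 0.68 and 0.87. The ME-180 value is for NM_001256293.1, scaled over the transcripts in both tables. The SiHa value is for NM_002273.3, scaled over the SiHa rows. The distance between these libraries thus depends on the scaling.

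The other keratins show how KRT8 and KRT18 stood within the family. In ME-180, 9 keratin genes reached 100 counts in a library. KRT8, KRT18, KRT5 and KRT10 reached it in both libraries, and each of these 4 was lower in the library labelled knockdown, as were 20.6% of all genes. The other 5 reached it in the control alone, so their direction follows from the threshold and their values are given as a description. KRT5, the basal type II keratin, had 239 counts against 679522 and was 2644-fold lower (2329 to 3014). KRT14, its type I partner, had 30 against 46445 counts and was 1440-fold lower (1008 to 2134). KRT17, a type I keratin of stressed and basal epithelium, was 383-fold lower, with 85 against 35001 counts. KRT80, a type II keratin, had 2 against 1462 counts, a ratio of 680-fold lower with an interval of 188 to 5618. KRT10, the type I keratin of cornifying layers, had 1362 against 6802 counts and was 4.64-fold lower (4.38 to 4.93). KRT9 and KRT3, with 301 and 113 counts in the control, had 0 in the library labelled knockdown, and reads of close paralogs may be among the counts of both. Among the 4 genes that reached 100 counts in both libraries, KRT18 kept the second largest fraction of its control level, after KRT10.

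KRT8 and KRT18 differed from the basal keratins in the size of the change, beyond counting error. Relative to KRT5, KRT8 was 30.4-fold higher in the library labelled knockdown than in the control (25.2 to 36.6), and KRT18 was 358-fold higher (311 to 415). Relative to KRT17, KRT8 was 4.40-fold higher (3.41 to 5.72) and KRT18 51.9-fold higher (41.5 to 65.6). In SiHa the direction was the other way: relative to KRT5, KRT8 had a ratio of 0.598 (0.515 to 0.692) and KRT18 of 0.489 (0.421 to 0.567) with overexpression against vector. KRT19 kept pace with KRT15, a basal type I keratin, with a change of 0.916 between them and an interval that holds 1 (0.833 to 1.01). It outpaced KRT17 by 1.35-fold (1.30 to 1.41).

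Of 12 keratins that reached 100 counts in a SiHa library, 6 were at least 2-fold higher with overexpression and 0 lower. KRT13 and KRT14, 2 of these 6, reached it with overexpression alone and KRT81 with the vector alone, so their direction follows from the threshold. The other 9 reached it in both libraries, and of them KRT5, KRT15, KRT17 and KRT19 passed the rule. KRT14 had 392 counts against 23, KRT15 2063 against 679, KRT5 730 against 247 and KRT13, a type I keratin of mucosal squamous epithelium, 252 against 85. KRT17 had 120878 counts against 58740, a ratio of 2.14 (2.11 to 2.16). KRT19 was the sixth of these. KRT10 had 2546 against 2491 counts (log2 ratio 0.08), and KRT81, a hair keratin with close paralogs that can share its reads, 48 against 100 (-0.84), both short of the rule. KRT4, a type II keratin of mucosal epithelium, and KRT80 had log2 ratios of 0.97 and 0.89, beside the 0.87 of KRT8, and KRT4 passed the rule as a seventh gene with trimmed means scaling. By type, over keratins with at least 1 CPM in both SiHa libraries, 5 of 8 type I and 1 of 6 type II genes were higher, where 0.572% of all genes were. The basal and squamous list had 5 of 7 higher in SiHa, and the list of simple epithelial keratins, with KRT80 beside the named genes, 1 of 4. In ME-180, 6 of 10 type I and 6 of 8 type II keratins passed the 1 CPM minimum through the control alone and could only come out lower, so no count over them is read. KRT20, a simple keratin of intestinal epithelium, is among them, with 0 against 12 counts. The 4 type I genes (KRT10, KRT14, KRT17 and KRT18) and 2 type II genes (KRT5 and KRT8) with at least 1 CPM in both ME-180 libraries were lower in the library labelled knockdown. Over all 6783 genes of that comparison, 20.6% were lower.

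**Figure D4:**
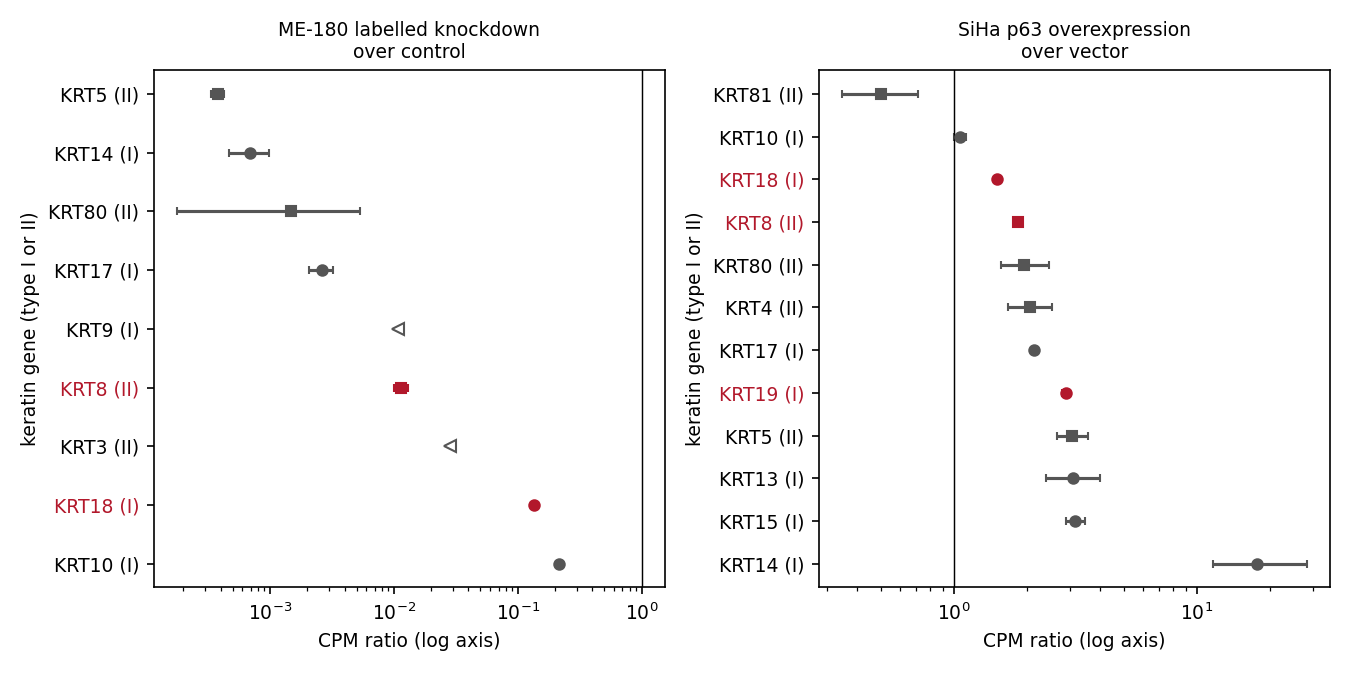
CPM ratio (log axis) of each keratin gene that reached 100 counts in a library, with exact 95% intervals for counting error, in ME-180 and in SiHa. Circles are type I and squares type II keratins, red marks KRT8, KRT18 and KRT19, and open triangles are genes with 0 counts in the library labelled knockdown, placed at a floor of 3 counts there. In ME-180 KRT8 lies at 0.0115 and KRT18 at 0.136, and in SiHa KRT19 lies at 2.89 among the basal keratins.

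The makeup of the keratin counts was not the same in the ME-180 libraries. Over 16 keratin genes with rows in both tables, KRT8 and KRT18 together took 43.3% of 3033 keratin counts in the library labelled knockdown (exact binomial interval 41.6% to 45.1%) and 3.66% of 798960 in the ME-180 control (3.62% to 3.71%). KRT18 by itself took 36.1% in the library labelled knockdown and 1.09% in the control, and KRT8 took 7.25% against 2.58%. KRT10 held 44.9% in the library labelled knockdown and KRT5 85.1% in the control. In SiHa the pair took 28.8% of 175236 counts with overexpression (28.6% to 29.0%) and 33.5% of 92781 with the vector (33.2% to 33.8%), and KRT17 held 69.0% and 63.3%. With KRT19 and all 26 SiHa keratin genes included, the 3 simple keratins took 32.9% with overexpression and 36.3% with the vector. These are shares of counts, which grow with transcript length, and not of molecules.

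**Figure D5:**
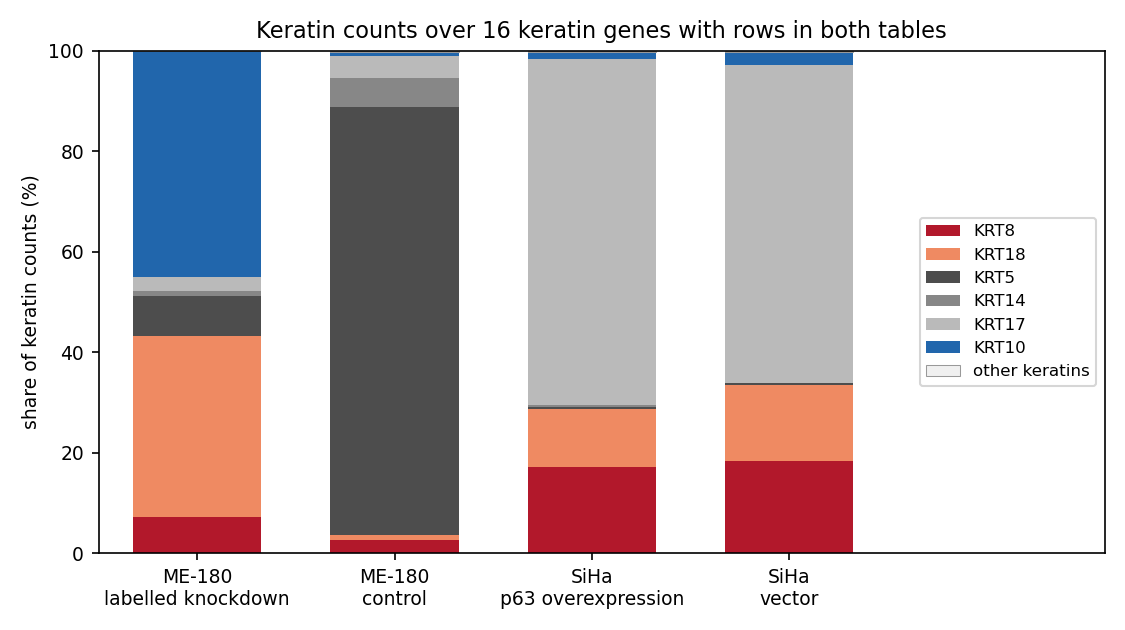
Share of keratin counts (%) taken by each gene in the 4 libraries, over 16 keratin genes with rows in both tables. KRT8 and KRT18 (red and orange) together take 43.3% in the library labelled knockdown, 3.66% in the ME-180 control, 28.8% in SiHa overexpression and 33.5% in the SiHa vector. The counts behind the first bar number 3033, against 798960 behind the second.

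Genes for proteins that anchor keratin filaments went both ways in the same ME-180 comparison. Of 20 such genes, 7 had rows, and 6 had at least 1 CPM in both libraries. Of these 6, 3 were lower and 0 higher, where 20.6% of all genes were lower and 28.2% higher. The remaining 3 lay above 0 without passing the rule, with log2 ratios of 0.97 for TCHP, 0.76 for PKP4 and 0.67 for FBF1. DSP, the desmosome protein that binds keratin filaments, had 1553 counts in the library labelled knockdown against 11675, 6.99-fold lower (6.63 to 7.38), close to the 7.38-fold of KRT18. PLEC, plectin, which links keratins to hemidesmosomes, was 5.49-fold lower (4.88 to 6.19). The desmosome plaque gene PKP2 was 3.70-fold lower, with 300 against 1193 counts. PKP1, another plaque gene, had 1 count against 9585 and passed the minimum through the control alone. In SiHa 0 of 15 measured anchor genes passed the rule in either direction (median 0.05), where 1.32% of all genes did. DST lay at 0.89, DSC2 at -0.80, DSP at 0.67 and PKP2 at 0.58.

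Of 7 measured intermediate filament genes outside the keratins in ME-180, 2 were higher and 1 lower in the library labelled knockdown. For 3 of the 7, DES among them, the 1 CPM minimum was passed through that library alone, so their direction was fixed by it. Of the other 4, 1 was higher and 1 lower, near the shares over all genes (28.2% higher and 20.6% lower). NEFM, a neurofilament subunit, had 353 counts against 12, and DES, the muscle filament desmin, 25 against 0. LMNA, the lamin of the nuclear envelope, had 321 against 6072 counts, 17.6-fold lower (15.7 to 19.7). VIM, the filament of mesenchymal cells, had no row in either table. In SiHa 0 of 6 measured members passed the rule (median -0.04, and 0.00456 with trimmed means scaling), where 1.32% of all genes did. NEFM had a log2 ratio of -0.75 there.

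Of 7 measured genes for proteins that bind, modify or degrade keratins, 2 were higher and 1 lower in ME-180, or 1 higher and 1 lower with trimmed means scaling. These counts too are close to the shares over all genes (28.2% higher and 20.6% lower). RCHY1, a ubiquitin ligase, had 467 counts in the library labelled knockdown against 83, and CASP6, a caspase that cleaves KRT18, 521 against 262. SQSTM1, an autophagy receptor that gathers in keratin aggregates, was 2.63-fold lower, with 1364 against 3852 counts. In SiHa 0 of 9 passed the rule (median -0.07), where 1.32% of all genes did. HSPB1, a small heat shock protein, lay at 0.28 and SQSTM1 at 0.28.

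Among 30 transcription factor genes of families active in epithelia, 14 could be measured in ME-180, 4 of them through the control alone. Of the 10 with at least 1 CPM in both libraries, 2 were lower and 2 higher, near the shares over all genes. The epithelial ETS factors ELF3 and EHF were 2 of those 4, with 0 counts in the library labelled knockdown against 4952 and 4298. Against a floor of 3 counts in that library, ELF3 was at least 1535-fold lower and EHF at least 1332-fold lower. ETS1, also one of them, had 3 against 130 counts, a ratio 40.3-fold lower (13.5 to 198), and RARG, a retinoic acid receptor, was 12.8-fold lower, with 138 against 1904. The 2 higher genes, chosen for naming after their values were seen, were CDX2, an intestinal factor (1014 against 117 counts), and RARB, another retinoic acid receptor (190 against 74). In SiHa 0 of 16 passed the rule (median 0.09), where 1.32% of all genes did. EHF lay at 0.87, ELF3 at 0.50, JUN, an AP-1 subunit, at -0.78 and SP3 at -0.34.

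Genes of glandular and columnar epithelium, the tissue that KRT8, KRT18 and KRT19 typify, were near or under detection in the library labelled knockdown. In SiHa they were short of the rule, which 1.32% of all 6996 genes passed in either direction. In ME-180 all 8 measured genes of this list were below 1 CPM in the library labelled knockdown and passed the minimum through the control alone, so their direction was fixed by it and no count is read. Their levels are a description. CLDN7, a claudin of tight junctions, had 9 counts against 2367, CLDN3 had 3 against 77 and PAX8, a Müllerian factor, 1 against 67. In SiHa 0 of 8 passed the rule. Of these 8, 7 lay above 0 (median 0.45 against -0.05 over all genes), where 2982 of all 6996 genes did. MUC1, a membrane mucin, had 584 counts with overexpression against 413. MUC16 had 19 against 6 and passed the minimum through overexpression alone, so its direction was fixed by it. EPCAM, the epithelial adhesion molecule, had 116 against 90 counts in SiHa and no row in ME-180, and KRT7 had no row in either table.

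Markers of other cell types also differed in ME-180. Of 19 mesenchymal genes, 11 could be measured, 4 of them (ZEB1, ZEB2, COL3A1 and PDGFRB) through the library labelled knockdown alone. Of the other 7, 2 were higher and 2 lower in the library labelled knockdown, near the shares over all genes (28.2% and 20.6%). Their summed level over the 12 rows was 245 CPM in the library labelled knockdown against 221 CPM in the control. ZEB1 and ZEB2, factors that repress epithelial genes, reached 179 and 223 counts against 1 each in the control, and COL3A1, a fibrillar collagen, had 164 against 9. Of the 7 genes with at least 1 CPM in both libraries, the 2 higher were ACTA2, with 254 against 35 counts, and FN1, fibronectin, with 140 against 24. The 2 lower were COL1A1 and TAGLN. COL1A1, a more abundant fibrillar collagen, was 2.44-fold lower, with 524 against 1373 counts. TAGLN, a smooth muscle actin-binding protein, was 2.57-fold lower, with 77 against 213. In SiHa 2 of 11 measured mesenchymal genes were lower and 0 higher, where 0.743% of 6996 genes were lower and 0.572% higher. The lower genes in SiHa were FN1 at 33 counts with overexpression against 87 and ZEB2 at 49 against 120. The immune list had 1 of 3 measured genes higher and 1 lower in ME-180 (summed 10.4 CPM against 52.6), the endothelial list 1 of 2 each way (2.79 against 15.6 CPM, with CDH5 at 0 in the library labelled knockdown) and the neural list 2 of 5 higher and 1 lower (39.3 against 42.4 CPM, and 2 lower with trimmed means scaling). In these 3 lists, 3 genes alone were at or above 1 CPM in both libraries. The defining markers PTPRC, CD3D and SYP had no row. The part of other cell types in the keratin values was not tested. GAPDH, a housekeeping gene, had a log2 ratio of -1.25 and TBP of 1.30 in ME-180. There 9 of 11 measured housekeeping genes did not pass the rule (8 with trimmed means scaling), and 48.9% of all 6783 genes passed it in either direction. In SiHa 0 of 11 housekeeping, 0 of 5 neural and 0 of 1 endothelial genes passed it, where 1.32% of 6996 genes did. Of 3 immune genes, 1 was higher (CD79A, 21 counts with overexpression against 1, measured through overexpression alone).

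Genes with the most similar profiles were sought by the distance of log2(CPM + 1), centred on each gene's mean, over the 4 libraries, which describes 4 points. For KRT8 the nearest of 5063 genes were IFI16, CASP4, PTGR1, DNAJA4 and SPINT2, at distances of 0.79 to 0.87 log2 units. In the library labelled knockdown IFI16, CASP4, PTGR1 and DNAJA4 had 0.0995, 0, 0.199 and 0 CPM. These levels are below the added 1 CPM, which therefore limits their ratios and their distance to KRT8. SPINT2, an epithelial protease inhibitor, had 8.66 CPM in the library labelled knockdown, 687 in the ME-180 control, 412 in SiHa overexpression and 343 in the SiHa vector. For KRT18 the nearest included TGFB2, CTAGE9, SPINK5 and NHLH2, at 0.30 to 0.58, all at far fewer counts than KRT18. The same limit holds for CTAGE9, SPINK5 and NHLH2, with 0, 0.597 and 0.0995 CPM in the library labelled knockdown. TGFB2, a growth factor of the TGF-beta family, had 1.19 CPM in the library labelled knockdown, 12.9 in the ME-180 control, 23.8 in SiHa overexpression and 20.3 in the SiHa vector. KRT19 could be compared in SiHa alone, over genes that reached 1000 counts, where KRT15, KRT17, CDH3, ALDH1A3 and KRT8 were nearest in log2 ratio among 1703. CDH3, the P-cadherin of basal epithelial cells, had a log2 ratio of 1.01 and ALDH1A3, a retinaldehyde dehydrogenase, of 0.93.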

How the data were processed

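RNA was measured in 4 libraries, each the 1 library of its group, with groups taken from the sample titles. TRIzol served for RNA extraction, per the labels' protocols. Per the submitters' processing notes the build was hg19 and the tools were DESeq2, Cufflinks and TopHat, with no role stated. The authors deposited whole-number counts per RefSeq transcript, with log2 fold changes and p-values of their own. Those p-values come from 1 library per group and are not printed. Spreadsheet dates stood in place of 32 gene names in ME-180 and 31 in SiHa, restored from the transcript identifiers. Each gene was represented by its row with the highest summed CPM; between lines, over the 13206 transcripts in both tables. A pseudocount of 1 CPM shrinks the ratios of low genes. Named genes were KRT8, KRT18, KRT19, TP63, keratins with at least 100 counts in a library, up to 4 genes per list with the largest ratio, and the nearest profiles; a few genes that this rule names are not reported here. The members and the 14 gene lists were chosen with earlier results of these data known. Alternatives were scaling (edgeR 4.0.16 trimmed means, DESeq2 1.42.0 size factors, totals without keratins), pseudocount, floor and row choice. Call rules were tested on simulated data. Intervals used SciPy 1.17.1. Peaks were not used, for want of an hg19 annotation.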

Additional observations from a re-analysis of the deposited data

How the results depend on the processing

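KRT8, KRT18 and KRT19 kept their direction and their side of the 2-fold rule under each of the 49 alternatives run for their log2 ratios. Trimmed means scaling, a shift of -0.28 in ME-180 before the pseudocount, gave -6.66 for KRT8 and -3.15 for KRT18, and size factors gave -6.65 and -3.14. Totals without keratin rows gave -2.98 for KRT18, and a pseudocount of 5 gave -6.15 for KRT8. In SiHa, trimmed means gave 0.92 for KRT8 and 0.63 for KRT18, and size factors 0.91 and 0.63. Between lines, trimmed means, size factors and totals without keratins gave 0.89, 0.86 and 0.78 for KRT8, and -0.10, -0.13 and -0.21 for KRT18. With a pseudocount of 5, higher and lower genes numbered 1272 and 918 in ME-180 (1914 and 1400 as reported) and 14 and 6 in SiHa (40 and 52 as reported), and 452 rather than 777 were lower between lines. With a pseudocount of 0.1, SiHa had 113 and 227. The share of higher genes among those called in ME-180 was 57.8%, and 47.6% with trimmed means. Ratios with KRT19 in ME-180 could not be computed for want of a row. No paired analysis was possible because each group has 1 library, and for the same reason none could be left out. The lowest count of the 3 genes is the 220 of KRT8 in the library labelled knockdown, and the spread between cultures is unknown.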
